A study of Mus musculus with 33 samples.

Results

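A group of 10 endothelial genes was followed through a differentiation series of mouse embryonic stem cells (mESCs), out of the 37991 gene identifiers counted in every library. They were Aplnr, Kdr, Etv2, Tie1, Tek, Cdh5, Esam, Cldn5, Pecam1 and Eng. The group was chosen by the counts of Aplnr, which was already known to be the member with the lowest level in Neil1-deficient embryoid bodies (EBs) relative to controls, and was filled with textbook endothelial genes. All values of that contrast are therefore given as a description and carry no test. The values of Aplnr in every other comparison that uses the control EBs are a description too, since those libraries entered its choice. Where members are counted in these comparisons, Aplnr is included.

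The series measured polyA RNA of lines made with CRISPR/Cas9 from E14TG2a, an established mESC line, to ask how loss of the DNA glycosylases NEIL1 or NEIL2 or of the endonuclease APEX1, all of base excision repair, alters differentiation. Lines were sampled at 3 stages, as mESCs, as EBs, which are floating aggregates grown for 8 days without retinoic acid (RA), and as EBs + RA, which were split off on day 4 and given 5 µM RA from then on. Controls were 3 clones labelled wild-type that had received the empty CRISPR vector (#1, #4, #7). Neil1 knockout clones were #7, #9 and #11, and Neil2 knockout clones were #1, #11 and #14, each with 1 library per stage. Apex1 knockout was 1 clone, #46, measured in technical duplicates, so that on its side tests measure the spread between libraries and not between clones. This makes 33 libraries in 12 groups.

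Endothelial cells line blood vessels and arise from mesoderm. Mesodermal progenitors switch on Kdr, the main receptor for vascular endothelial growth factor (VEGF), and Etv2, an ETS transcription factor that is required for the blood and endothelial lineages. Aplnr, the apelin receptor, marks early mesoderm and later sprouting vessels. Differentiated endothelium then carries the receptors Tie1 and Tek and the junction proteins Cdh5, Esam and Cldn5. Pecam1, an adhesion molecule of endothelial junctions, is also a surface protein of undifferentiated mESCs, and Eng is a co-receptor for transforming growth factor beta (TGF-β) family ligands.

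Each library held between 21523742 and 48350904 counts on genes. Levels are counts scaled to library size (CPM) after scaling for library composition, and levels of different genes are compared only per kilobase of exon (CPM per kb). The mESC library of Neil1 clone #11 stood apart, with 345 of 511 X-linked and 7 of 7 Y-linked genes at 0 that reached 10 counts in all other libraries of that stage, and no autosomal gene in this state. All 10 members are autosomal. Over the 8 chromosomes that hold them, the median log2 difference of a library from its stage's controls, over genes at 5 CPM or more in the controls, lay between −0.16 and 0.13, except for chromosome 9, which was at −0.27, −0.30 and −0.35 in the mESC, EB and EB + RA libraries of Neil1 clone #11. Counts over the targeted genes did not check the labels, since only part of each gene was deleted. Neil1 was at 1.38 to 6.05 CPM in Neil1 EBs against 5.80 to 9.18 CPM in controls. Neil2 was at 6.61 to 17.9 CPM in Neil2 EBs against 6.45 to 10.7 CPM, and Apex1 was at 60.0 to 86.2 CPM in the EB libraries labelled Apex1 against 12.5 to 15.6 CPM.

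The upstream sequences of Kdr and Etv2, which were lower in Neil-deficient EBs, and of Tek and Eng, which were higher, are shown because these pairs moved in opposite directions. Each is the 250 bases before the RefSeq start of the gene, 5′ to 3′ on the gene's strand, in build GRCm38.p6, and capitals mark the core letters GGAA or TTCC that ETS factors such as ETV2 recognise, counted on both strands. The Kdr window is chr5:75978456-75978705 (minus strand), the Etv2 window chr7:30635853-30636102 (minus strand), the Tek window chr4:94739039-94739288 (plus strand) and the Eng window chr2:32646345-32646594 (plus strand).
Kdr: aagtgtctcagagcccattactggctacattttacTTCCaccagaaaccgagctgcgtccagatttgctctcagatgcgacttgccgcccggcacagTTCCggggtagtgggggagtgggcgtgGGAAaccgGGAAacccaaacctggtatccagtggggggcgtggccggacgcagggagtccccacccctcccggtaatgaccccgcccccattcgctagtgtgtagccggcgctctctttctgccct
Etv2: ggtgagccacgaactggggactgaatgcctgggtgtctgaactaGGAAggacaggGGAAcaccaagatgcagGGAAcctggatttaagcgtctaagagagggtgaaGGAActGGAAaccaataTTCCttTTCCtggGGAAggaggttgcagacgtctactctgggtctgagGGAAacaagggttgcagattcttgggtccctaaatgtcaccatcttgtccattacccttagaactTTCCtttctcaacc
Tek: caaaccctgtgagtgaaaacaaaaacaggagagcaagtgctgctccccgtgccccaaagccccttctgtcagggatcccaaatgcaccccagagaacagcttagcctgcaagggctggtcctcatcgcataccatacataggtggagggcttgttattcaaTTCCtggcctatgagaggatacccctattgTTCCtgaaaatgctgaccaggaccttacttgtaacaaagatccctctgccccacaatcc
Eng: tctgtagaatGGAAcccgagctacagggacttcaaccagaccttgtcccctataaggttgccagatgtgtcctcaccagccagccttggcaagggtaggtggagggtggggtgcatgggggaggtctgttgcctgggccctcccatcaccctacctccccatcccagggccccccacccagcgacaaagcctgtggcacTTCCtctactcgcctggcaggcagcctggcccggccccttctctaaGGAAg
The Etv2 window held 10 matches, Kdr 4, Eng 3 and Tek 2. Of the other members with a RefSeq entry, Tie1 held 7 and Cldn5 held 0. Of 32851 promoter windows of this length, 93.4% held at least 1 match and the median was 3, so that a match is common. The letters AGGTCA or TGACCT, a half-site of retinoid receptors, were in none of the 6 windows and in 14.0% of all windows. No entry was matched for Aplnr, Pecam1, Cdh5 or Esam.

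The first question was where these genes stood in control cells. Per kilobase, control mESCs held most of Pecam1 (16.9 ± 2.67 CPM per kb, SD, n = 3), Eng (13.8 ± 0.225) and Tek (4.22 ± 0.67), followed by Cldn5 (1.76 ± 0.819), Etv2 (0.779 ± 0.125), Esam (0.604 ± 0.0677), Tie1 (0.298 ± 0.12), Kdr (0.205 ± 0.119), Cdh5 (0.184 ± 0.0418) and Aplnr (0.0108 ± 0.0106). The libraries overlapped between Pecam1 and Eng, between Cldn5 and Etv2 and between neighbours from Tie1 to Cdh5, and the other neighbours in this order were apart. In control EBs the order was Pecam1 (9.33 ± 0.426 CPM per kb), Eng (6.76 ± 1.26), Kdr (5.14 ± 0.833), Etv2 (3.27 ± 0.208), Aplnr (3.21 ± 0.629), Cldn5 (2.09 ± 0.349), Tek (1.77 ± 0.648), Esam (1.36 ± 0.135), Cdh5 (1.00 ± 0.596) and Tie1 (0.227 ± 0.0877). Kdr thus ranked above Etv2 in EBs and below it in mESCs, while in EBs the libraries of Eng and Kdr, of Etv2 and Aplnr and of neighbours from Cldn5 to Cdh5 overlapped. In control EBs + RA the first 5, Eng (2.53 ± 0.504), Cldn5 (2.42 ± 1.29), Cdh5 (2.23 ± 0.228), Kdr (2.20 ± 0.25) and Esam (2.06 ± 0.317), overlapped from neighbour to neighbour, Pecam1 (1.25 ± 0.262) stood apart from both of its neighbours, and Tek (0.712 ± 0.0556), Tie1 (0.629 ± 0.196), Etv2 (0.304 ± 0.22) and Aplnr (0.254 ± 0.0716) overlapped again, with Aplnr last. Because these are bulk libraries, fewer cells of a type and less RNA per cell cannot be told apart.

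**Figure D1:**
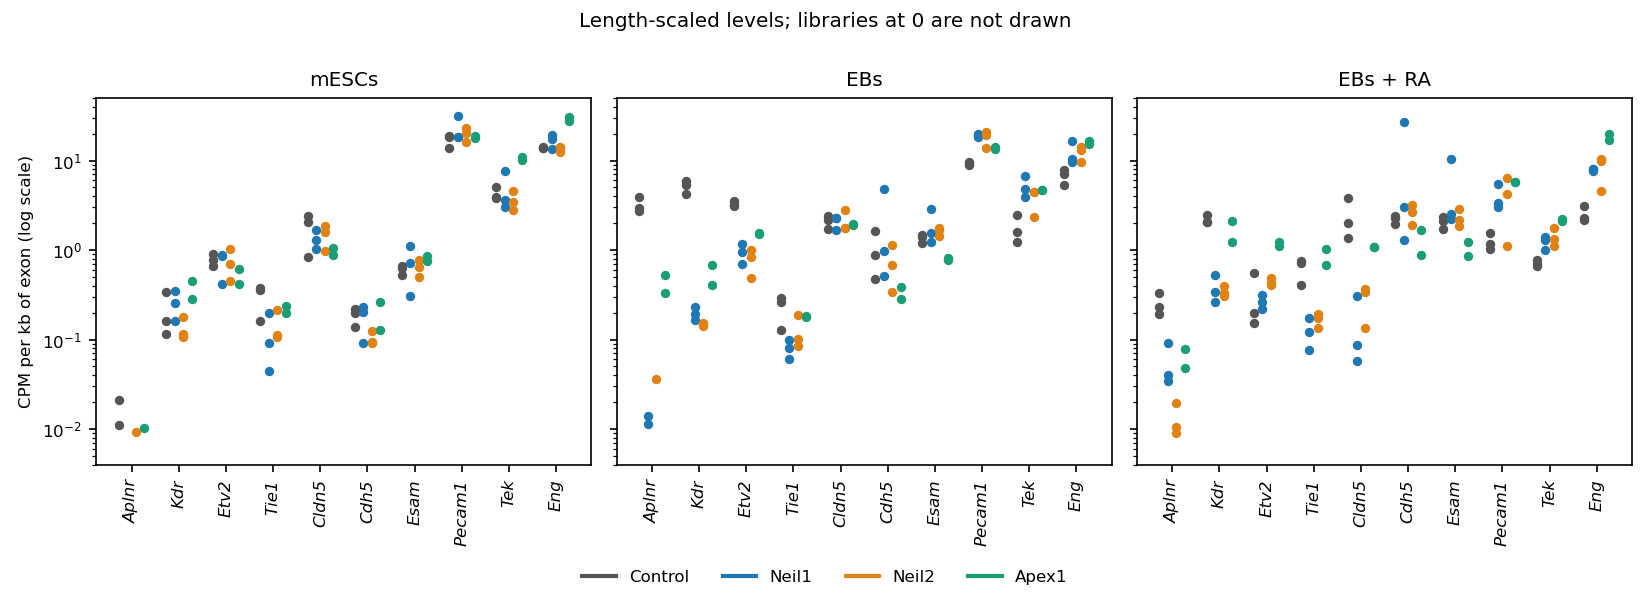
Level of each of the 10 genes in CPM per kb of exon (log axis) in every library, in 1 panel per stage, with colours for genotype. Libraries at 0 counts are not drawn. In control EBs the panel runs from Pecam1 at a mean of 9.33 CPM per kb down to Tie1 at 0.227.

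A gene was called differentially expressed (DE) when its log2 fold change exceeded 0.5 in either direction and its adjusted p (FDR) lay below 0.1, by edgeR's quasi-likelihood test, adjusted after Benjamini-Hochberg over all genes tested. Between control mESCs and EBs 8 of 10 members were DE, 5 higher and 3 lower in EBs, where 38.7% of all genes tested were DE (18.5% higher and 20.2% lower). Aplnr had 0, 2 and 1 counts in the 3 control mESC libraries and 503, 250 and 379 in the control EBs, a ratio of 298 in CPM with a 95% interval of 102 to 1440 for counting error alone, given without a test. Kdr rose from 1.17, 0.832 and 2.48 CPM to 42.7, 30.8 and 38.7 CPM, a log2 fold change of 4.63 (SE 0.35, FDR = 2.0e-05). Etv2 (log2 fold change 2.04, FDR = 3.0e-04), Cdh5 (2.41, FDR = 0.0034) and Esam (1.15, FDR = 0.00544) also rose. Pecam1 (−0.88, FDR = 0.00107), Tek (−1.26, FDR = 0.00457) and Eng (−1.05, FDR = 6.4e-04) fell, whereas Tie1 (−0.40, FDR = 0.482) and Cldn5 (0.22, FDR = 0.668) were not called.

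RA shifted the members in control EBs again. Against control EBs without RA, 9 of 10 members were DE in EBs + RA, 3 higher and 6 lower, where 44.1% of all genes were DE (23.3% higher and 20.7% lower). Aplnr was at 10.6, 9.73 and 14.0 CPM without RA and at 1.19, 0.829 and 0.695 CPM with it (log2 fold change −3.66, no test), a 12.4-fold ratio with a counting interval of 9.88 to 15.8. Etv2 fell from 4.73, 5.21 and 4.64 CPM to 0.231, 0.829 and 0.298 CPM (−3.45, SE 0.42, FDR = 2.1e-04), and the libraries of the 2 groups did not overlap for either gene. Pecam1 (−2.91, FDR = 4.5e-06), Eng (−1.43, FDR = 4.5e-04), Tek (−1.34, FDR = 0.00369) and Kdr (−1.24, FDR = 2.5e-04) fell as well. The receptor Tie1 (1.45, FDR = 0.011) and the junction genes Cdh5 (1.15, FDR = 0.0337) and Esam (0.59, FDR = 0.0432) rose, and Cldn5 was at 0.20 (FDR = 0.674). The Cdh5 call was lost without the EBs of control #1, and the Esam call without the EBs of #7 or the EBs + RA of #1 or #7. The 6 lower members thus included the early genes Aplnr, Kdr and Etv2 as well as Pecam1, Tek and Eng, the 3 that were highest per kilobase in mESCs.

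**Figure D2:**
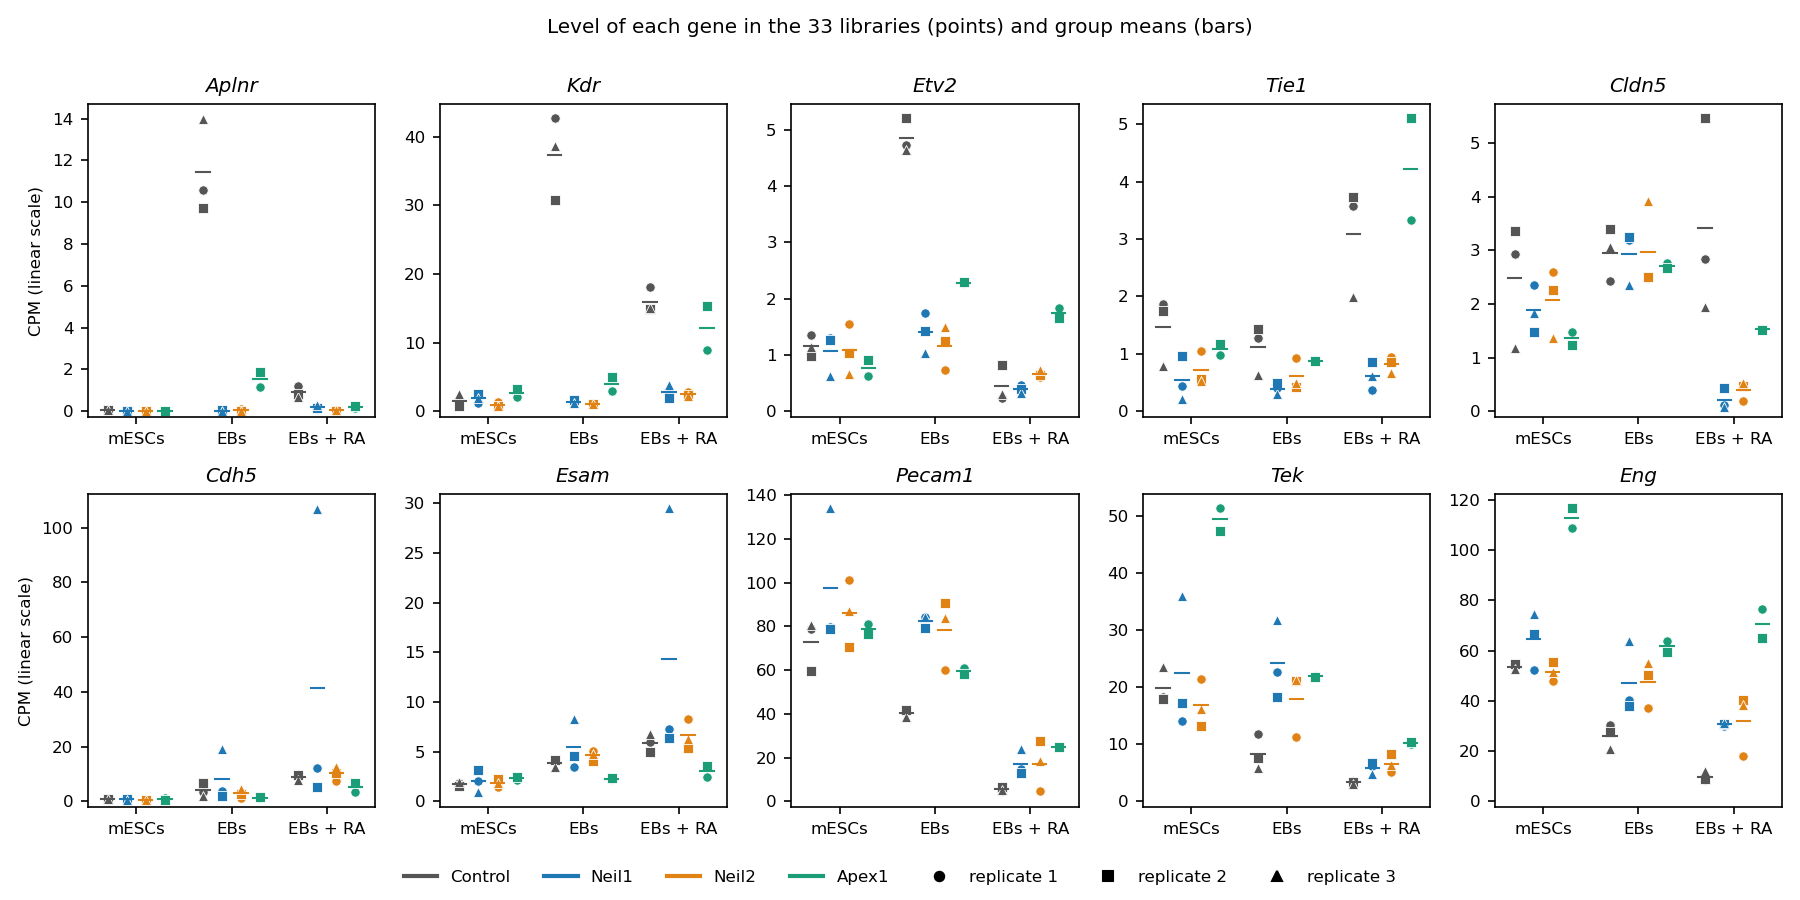
CPM of each of the 10 genes in all 33 libraries (linear axes from 0), by stage and genotype, with a bar for the group mean and a marker shape for the replicate. Aplnr stood at 9.73 to 14.0 CPM in control EBs and at no more than 1.87 CPM in any mutant EB library, and Cdh5 and Esam of Neil1 clone #11 in EBs + RA stood at 107.0 and 29.5 CPM.

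The genotypes were then compared within stages, each mutant with the same 3 control libraries of its stage. In mESCs, edgeR called 0 of the 9 members tested in Neil1 and 0 of 9 in Neil2, where 1.82% and 1.83% of all genes were DE, and DESeq2 called 0 in both. These 2 shares depend on single libraries and on the tool. The 283 genes called in Neil1 mESCs became 0 without control #4, 2011 without control #7, 0 with the replicate number as a block and 999 by DESeq2, and the 286 in Neil2 mESCs became 1, 1494, 634 and 811. At an unadjusted p below 0.05 there were 1 member in Neil1 mESCs, Tie1 at −1.44, and 2 in Neil2 mESCs, Tie1 at −1.07 and Cdh5 at −0.85, all log2 fold changes. Without control #7, Tie1 was called in both (FDR = 0.0793 in Neil1 and 0.0389 in Neil2). In EBs the libraries of Neil1 and control did not overlap for 7 of 10 members, 4 lower and 3 higher (44.1% of all genes, 22.8% lower and 21.3% higher). In Neil2 EBs 6 of 10 members were DE, 3 lower and 3 higher, against 16.3% of all genes (7.69% lower and 8.65% higher). In Apex1 EBs 8 of 10 were DE, 5 lower and 3 higher, against 25.8% (13.9% lower and 11.9% higher). Aplnr, which carries no test in EBs, was counted among the lower members in both. In EBs + RA 7 of 10 were DE in Neil1, 4 lower and 3 higher (41.1% of all genes, 19.9% lower and 21.2% higher). They were 7 of 10 with the same split in Neil2 (34.9%, 16.6% lower and 18.3% higher) and 7 of 10 in Apex1, 3 lower and 4 higher (24.8%, 10.9% lower and 13.9% higher). The median log2 fold change of the members was −0.22 in Neil2 EBs and −0.56 in Apex1 EBs. With RA it was 0.32 in Neil1, 0.21 in Neil2 and 0.06 in Apex1, while that of all genes lay between −0.02 and 0.02 in these comparisons.

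**Figure D3:**
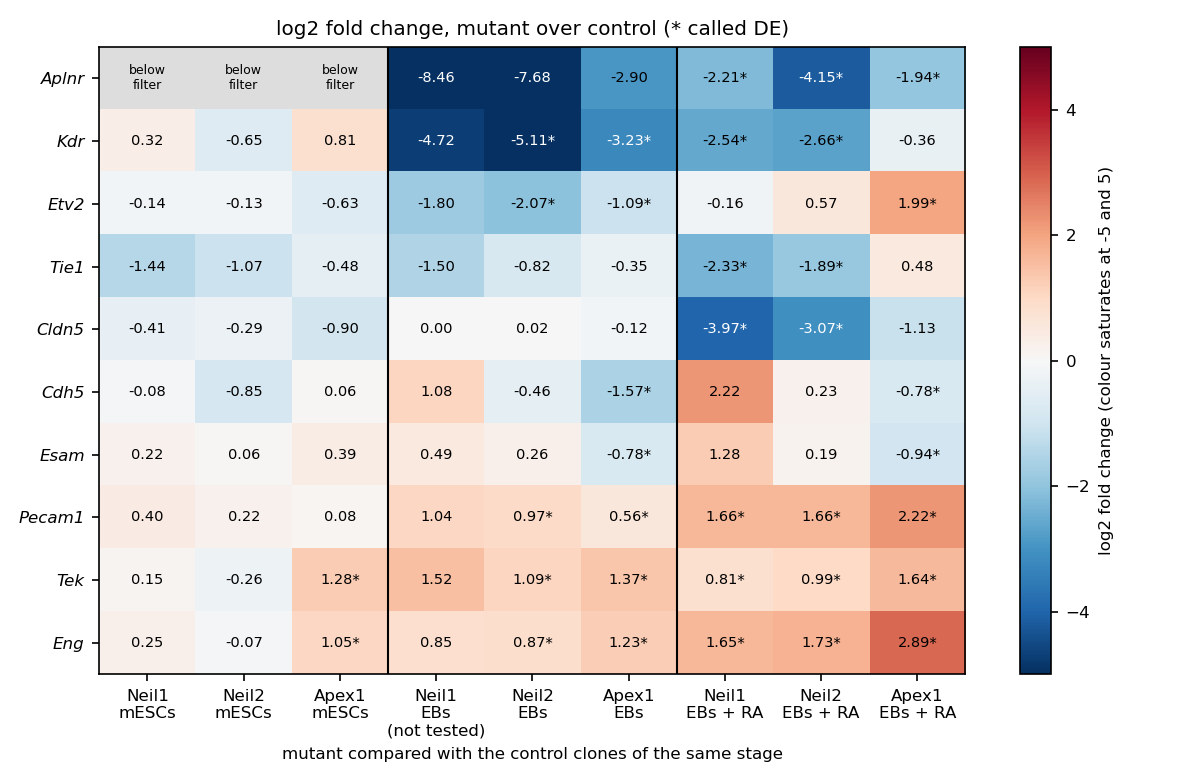
Log2 fold changes of the 10 genes (rows) in the 9 comparisons of a mutant with the controls of its stage (columns), with a star for a DE call. Neil1 EBs and Aplnr in all EBs carry no test, and Aplnr in mESCs was below the filter on low counts. Aplnr and Kdr are negative in all 3 mutants in EBs (Aplnr −8.46 in Neil1, −7.68 in Neil2 and −2.90 in Apex1), and Tek and Eng are positive.

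Aplnr (Ensembl ENSMUSG00000044338, NCBIM37 chr2:84976517-84980079, plus strand) was nearly absent from Neil-deficient EBs. Its counts were 1, 1 and 0 in the 3 Neil1 EB libraries and 4, 0 and 0 in Neil2 EBs, which is 0.05, 0.0407 and 0 CPM and 0.127, 0 and 0 CPM. With 1132 counts in all control EBs against 2 in Neil1 and 4 in Neil2, the CPM ratio of control to mutant was 403 (95% counting interval 111 to 3330) for Neil1, given as a description, and 218 (85.0 to 803) for Neil2. Neil2 EBs were thus at the level of control mESCs (log2 fold change against control EBs −7.68, no test). Apex1 EBs kept 1.18 and 1.87 CPM from 29 and 49 counts, below every control and above every Neil1 or Neil2 library (−2.90, no test). Whether Apex1 differed from the Neil mutants was not tested.

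In EBs + RA, where controls had 36, 22 and 21 counts of Aplnr, Neil1 libraries had 4, 4 and 8, Neil2 libraries 1, 1 and 2, and Apex1 libraries 4 and 8. In CPM the controls stood at 0.695 to 1.19, Neil1 at 0.124 to 0.323, Neil2 at 0.0319 to 0.0694 and Apex1 at 0.171 and 0.276. No mutant library reached the lowest control, and all 3 falls were DE, with log2 fold changes of −2.21 in Neil1 (SE 0.47, FDR = 0.00891), −4.15 in Neil2 (SE 0.50, FDR = 0.00101) and −1.94 in Apex1 (SE 0.48, FDR = 0.0261). The Apex1 call was lost without either of its duplicates. For Neil2, 79 counts against 4 give a ratio of 19.7 with a counting interval of 7.40 to 74.1.

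Kdr (NCBIM37 chr5:76328852-76374483, minus strand) followed Aplnr in EBs. Against 42.7, 30.8 and 38.7 CPM in control EBs, it was at 1.40, 1.67 and 1.19 CPM in Neil1 EBs (log2 fold change −4.72, no test), at 1.12, 1.05 and 1.04 CPM in Neil2 EBs (−5.11, SE 0.21, FDR = 1.8e-05) and at 3.0 and 4.95 CPM in Apex1 EBs (−3.23, SE 0.23, FDR = 2.6e-05). The Neil-deficient EBs had levels inside the range of control mESCs (0.832 to 2.48 CPM), and between Neil2 mESCs and Neil2 EBs Kdr was not DE (0.16, FDR = 0.763). With RA the mutants stood closer to the controls. Controls stood at 18.1, 14.9 and 15.0 CPM, Neil1 at 2.48, 1.89 and 3.88 CPM (−2.54, SE 0.29, FDR = 6.6e-04), and Neil2 at 2.85, 2.42 and 2.22 CPM (−2.66, SE 0.20, FDR = 2.4e-04). Apex1 EBs + RA, at 8.94 and 15.4 CPM, overlapped the controls and were not DE (−0.36, FDR = 0.337).

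Etv2 (NCBIM37 chr7:31418635-31421308, minus strand), the factor at the start of the endothelial lineage, was lower in all mutant EBs. Control EBs had 4.73, 5.21 and 4.64 CPM, Neil1 EBs 1.75, 1.42 and 1.04 CPM (log2 fold change −1.80, no test), Neil2 EBs 0.733, 1.25 and 1.49 CPM (−2.07, SE 0.30, FDR = 0.0037) and Apex1 EBs 2.27 and 2.29 CPM (−1.09, SE 0.21, FDR = 0.00343). No mutant EB library reached a control EB library. In EBs + RA, where control levels were 0.231, 0.829 and 0.298 CPM, Etv2 was not DE in Neil1 (−0.16, FDR = 0.832) or Neil2 (0.57, FDR = 0.41), and it rose in Apex1, at 1.84 and 1.66 CPM (1.99, SE 0.51, FDR = 0.0288), a call lost without either duplicate. In the last comparison the direction was thus opposite to that in EBs.

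The vascular receptor Tie1 (NCBIM37 chr4:118143796-118162666, minus strand) and the tight junction gene Cldn5 (NCBIM37 chr16:18776940-18778353, plus strand) fell in Neil-deficient EBs + RA. Tie1 was at 3.57, 3.73 and 1.99 CPM in control EBs + RA, at 0.372, 0.857 and 0.606 CPM in Neil1 (log2 fold change −2.33, SE 0.42, FDR = 0.00435) and at 0.938, 0.861 and 0.66 CPM in Neil2 (−1.89, SE 0.35, FDR = 0.00519). Cldn5 was at 2.84, 5.46 and 1.95 CPM in controls, at 0.124, 0.429 and 0.0808 CPM in Neil1 (−3.97, SE 0.64, FDR = 0.00278) and at 0.188, 0.478 and 0.521 CPM in Neil2 (−3.07, SE 0.52, FDR = 0.00367). For both genes every Neil-deficient library lay below every control. The Apex1 libraries stood at 3.34 and 5.11 CPM for Tie1 (0.48, FDR = 0.357) and at 1.54 and 1.52 CPM for Cldn5 (−1.13, FDR = 0.115), and neither was DE. Cldn5 was called there without a filter on low counts (FDR = 0.0412), by DESeq2 (FDR = 0.0842), without control #7 (FDR = 0.00583) and with the replicate number as a block (−1.35, FDR = 6.3e-04). The block pairs Apex1 duplicates with control clones by number alone. Without control #4, the highest control, Cldn5 was at −0.62 (FDR = 0.302). Without RA the values lay closer together. Cldn5 was at 2.42, 3.39 and 3.06 CPM in control, 3.2, 3.25 and 2.35 CPM in Neil1 (0.00, no test) and 2.49, 2.51 and 3.92 CPM in Neil2 EBs (0.02, FDR = 0.97). Tie1 was low in all EBs, at 0.626 to 1.44 CPM in controls, 0.298 to 0.488 CPM in Neil1 (−1.50, no test) and 0.418 to 0.924 CPM in Neil2 (−0.82, FDR = 0.281).

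The adherens junction gene Cdh5, encoding VE-cadherin (NCBIM37 chr8:106625525-106668402, plus strand), and Esam, encoding an endothelial adhesion molecule (NCBIM37 chr9:37335663-37345904, plus strand), were not called in Neil2 at any stage or in Neil1 mESCs and EBs + RA, and 1 Neil1 clone stood out. In Neil1 EBs + RA, Cdh5 was at 12.0, 5.11 and 107.0 CPM and Esam at 7.28, 6.32 and 29.5 CPM, in each case highest in clone #11, against 9.15, 9.65 and 7.88 CPM and 5.98, 4.97 and 6.79 CPM in controls. The log2 fold change of Cdh5 was 2.22 (FDR = 0.106) with clone #11 and −0.05 (SE 0.33, FDR = 0.915) without it, and that of Esam was 1.28 (FDR = 0.108) with it and 0.21 (FDR = 0.513) without it. With clone #11 kept, both were called when all genotypes entered 1 fit (2.21, FDR = 0.0441 for Cdh5 and 1.27, FDR = 0.0521 for Esam) and without Neil1 #7 or #9, and DESeq2 called Esam (1.31, FDR = 0.0329). The same clone was also highest in EBs, at 19 CPM for Cdh5 against 3.90 and 2.03 CPM and at 8.27 CPM for Esam against 3.50 and 4.51 CPM in the other Neil1 clones. Its mESC library was the lowest of the 3 Neil1 clones for both genes (0.369 and 0.885 CPM). That library had 352 X- and Y-linked genes at 0, against 0 and 3 of these in the clone's EB and EB + RA libraries. Its values may therefore not stand for the clone, and the reason was not tested. Esam was high in this clone although the median gene of its chromosome, 9, was lower there. The summed CPM of the 13 blood genes listed was 73.7 in the EB + RA library of clone #11 and 30.7 and 36.2 in the other Neil1 clones, and that of 13 mesoderm and heart genes was 556 against 183 and 243. Their part in the values of Cdh5 and Esam was not tested.

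In Apex1, Cdh5 and Esam fell at both EB stages. Cdh5 stood at 1.14 and 1.52 CPM in Apex1 EBs against 3.47, 6.58 and 1.92 CPM in controls (log2 fold change −1.57, SE 0.52, FDR = 0.0547), and Esam at 2.23 and 2.32 CPM against 4.03, 4.2 and 3.46 CPM (−0.78, SE 0.23, FDR = 0.0235). In EBs + RA the log2 fold changes were −0.78 for Cdh5 (SE 0.30, FDR = 0.0999) and −0.94 for Esam (SE 0.27, FDR = 0.0443). All 4 calls were lost with all genotypes in 1 fit. The calls in EBs were lost without either duplicate, that of Cdh5 with RA without control #1, control #4 or duplicate 1, and that of Esam with RA without control #1 or either duplicate. In Neil2 the log2 fold changes of both genes lay between −0.46 and 0.26 at the EB stages, and none was DE.

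Pecam1, Tek and Eng, which were highest in mESCs, went the other way and were higher in mutant EBs. Pecam1 (NCBIM37 chr11:106515531-106611942, minus strand) was at 40.6, 41.9 and 38.3 CPM in control EBs, at 84.4, 79.1 and 84.2 CPM in Neil1 EBs (log2 fold change 1.04, no test), at 60.0, 90.7 and 83.8 CPM in Neil2 EBs (0.97, SE 0.16, FDR = 0.00668) and at 61.0 and 58.2 CPM in Apex1 EBs (0.56, SE 0.09, FDR = 0.00141). All 8 mutant EB libraries lay above all control EBs, and the 3 control mESC libraries stood at 78.8, 59.7 and 80.4 CPM. In EBs + RA, Pecam1 was at 4.49, 6.67 and 5.07 CPM in controls and at 14.6, 12.9 and 23.7 CPM in Neil1 (1.66, SE 0.29, FDR = 0.00369). Neil2 EBs + RA, at 4.84, 27.6 and 18.2 CPM, overlapped the controls in clone #1 (1.66, SE 0.53, FDR = 0.0429, not called without control #1 or Neil2 #11). Apex1 libraries both stood at 24.6 CPM (2.22, SE 0.21, FDR = 8.1e-04).

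Tek (NCBIM37 chr4:94405980-94541667, plus strand), the receptor of the angiopoietins, had 11.7, 7.51 and 5.82 CPM in control EBs and 22.7, 18.2 and 31.7 CPM in Neil1 EBs (log2 fold change 1.52, no test). Neil2 EBs had 11.2, 21.0 and 21.3 CPM (1.09, SE 0.32, FDR = 0.0609), with 1 library inside the control range and the call lost without control #4, control #7, Neil2 #11 or Neil2 #14. Apex1 EBs had 22 and 21.8 CPM (1.37, SE 0.25, FDR = 0.00452). With RA it was at 3.63, 3.32 and 3.11 CPM in controls and higher in every mutant library, at 6.13, 6.64 and 4.73 CPM in Neil1 (0.81, FDR = 0.0335, lost without control #4 or Neil1 #9), 5.18, 8.32 and 6.29 CPM in Neil2 (0.99, FDR = 0.0165) and 10.1 and 10.4 CPM in Apex1 (1.64, FDR = 0.0022). Tek and Tie1, which form a receptor pair, thus moved in opposite directions in Neil-deficient EBs + RA, each with a DE call.

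Eng (NCBIM37 chr2:32502115-32538189, plus strand) stood at 30.2, 27.6 and 20.7 CPM in control EBs, at 40.2, 37.8 and 63.7 CPM in Neil1 EBs (log2 fold change 0.85, no test), at 37.1, 50.3 and 55.0 CPM in Neil2 EBs (0.87, SE 0.19, FDR = 0.0209) and at 63.9 and 59.6 CPM in Apex1 EBs (1.23, SE 0.14, FDR = 1.8e-04). In EBs + RA its control libraries were at 8.49, 8.82 and 12.0 CPM, and all mutants were above them, at 29.8, 30.9 and 31.1 CPM in Neil1 (1.65, SE 0.19, FDR = 6.1e-04), 17.9, 40.4 and 38.2 CPM in Neil2 (1.73, SE 0.31, FDR = 0.00446) and 76.7 and 64.9 CPM in Apex1 (2.89, SE 0.19, FDR = 3.3e-04). Eng and Tek were also the 2 members called in mESCs, both in Apex1, where 16.9% of all genes were DE (7.87% higher and 9.07% lower). Eng was at 109.0 and 117.0 CPM against 53.3, 54.5 and 52.8 CPM in controls (1.05, SE 0.11, FDR = 0.014) and Tek at 51.4 and 47.4 CPM against 18.3, 17.9 and 23.5 CPM (1.28, SE 0.15, FDR = 0.0161). These 2 calls were lost without either duplicate. The Eng locus overlaps Ak1 on the same strand and Fpgs on the other in the annotation, and Pecam1 overlaps a small RNA gene, so that part of their counts could be uncertain, as the strand setting of the counting is not stated.

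The summed CPM of 8 pluripotency genes, Pou5f1, Nanog, Zfp42, Klf4, Esrrb, Sox2, Dppa5a and Tdgf1, mostly moved with Pecam1, Tek and Eng. It ranged from 6680 to 8100 in control mESCs, 3380 to 4040 in control EBs and 245 to 315 in control EBs + RA. In mutant EBs it ranged from 5420 to 6880 in Neil1, 4980 to 6750 in Neil2 and 6800 to 6810 in Apex1, and in EBs + RA from 460 to 920, 524 to 1710 and 1640 to 2240. No mutant library at either EB stage fell into the control range. In Apex1 mESCs, where Tek and Eng were called higher, the sum was 5700 to 5730, below every control mESC library. There 2 of the 8 genes were lower and 0 higher (9.07% of all genes lower and 7.87% higher). Eng in Apex1 also did not fall with the sum from EBs (63.9 and 59.6 CPM) to EBs + RA (76.7 and 64.9 CPM). Of the 8 genes, 6 rose and 0 fell in Neil2 EBs and 6 and 0 in Apex1 EBs (8.65% and 11.9% of all genes higher). With RA 6 rose and 1 fell in Neil1, 7 and 0 in Neil2 and 6 and 0 in Apex1 (21.2%, 18.3% and 13.9% higher). Pou5f1, a core factor of pluripotency, went from 404 CPM in control EBs to 764, 659 and 754 CPM in Neil1, Neil2 and Apex1 EBs. Dppa5a, a gene of early embryonic cells, went from 1700 CPM to 3080, 2960 (log2 fold change 0.82, FDR = 0.0102) and 3360 CPM (0.98, FDR = 3.0e-04). Dppa5a was the largest part of the sum in control EBs. Tdgf1, encoding the Nodal co-receptor Cripto, stood at 363 CPM in control EBs, 488 CPM in Neil1, 500 CPM in Neil2 (0.47, FDR = 0.138) and 684 CPM in Apex1 (0.91, FDR = 1.8e-04). The part of undifferentiated cells in the levels of Pecam1, Tek and Eng was not tested.

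The summed CPM of 13 mesoderm and heart genes moved with Aplnr, Kdr and Etv2 in EBs, at 530 to 601 in controls, 123 to 141 in Neil1, 85.7 to 176 in Neil2 and 161 to 184 in Apex1. In Neil2 EBs 9 of the 13 fell and 0 rose (median log2 fold change −3.10), and in Apex1 EBs 11 of 13 fell and 0 rose (−2.01). Over all genes, 7.69% were lower and 8.65% higher in Neil2 EBs, and 13.9% and 11.9% in Apex1 EBs. Mixl1, a factor of the primitive streak, went from 92.0 CPM in control EBs to 2.82 CPM in Neil1, 2.21 CPM in Neil2 (log2 fold change −5.36, FDR = 3.5e-05) and 23.5 CPM in Apex1 (−1.97, FDR = 0.00568). Hand1, a factor of extraembryonic and heart mesoderm, went from 96.6 CPM to 8.54, 8.22 and 10.6 CPM. Eomes, a factor of the primitive streak and endoderm, was at 105 CPM in control EBs, 30.2 CPM in Neil1, 31.8 CPM in Neil2 (−1.71, FDR = 5.0e-04) and 64.0 CPM in Apex1 (−0.72, FDR = 0.00243). With RA it rose from 3.3 CPM to 7.12, 11.8 and 16.4 CPM in the 3 mutants (FDR = 0.0146, 0.00536 and 7.9e-04). The 10 mural genes, of the smooth muscle cells and pericytes around vessels, also summed to less, at 346 to 407 CPM in control EBs and 75.8 to 177 CPM in the mutants, with 6 of the 9 tested lower and 0 higher in Neil2 EBs. Of these, Acta2, smooth muscle actin, went from 41.0 CPM to 0.38 CPM in Neil1, 0.352 CPM in Neil2 (−6.80, FDR = 1.0e-04) and 3.21 CPM in Apex1 (−3.67, FDR = 0.0126). Tagln, a smooth muscle protein, went from 135 CPM to 9.03, 8.74 and 15.7 CPM, with FDR = 3.5e-05 in Neil2 and 7.8e-07 in Apex1. Notch3, a mural Notch receptor, fell in Neil2 (142 to 87.8 CPM, −0.68, FDR = 0.0613) and was at 129 CPM in Apex1 (−0.14, FDR = 0.373). Blood genes summed to 28.0 to 47.1 CPM in control EBs and 9.91 to 25.2 CPM in the mutants. Most of the control sum came from Runx1, at a mean of 24.8 CPM, so that the sum does not show a fall of the list as a whole. Itga2b, the platelet integrin, was at 4.90 CPM in control EBs and was not called in Neil2 (6.57 CPM, FDR = 0.503) or Apex1 (4.13 CPM, FDR = 0.415), while with RA it rose from 3.49 CPM to 5.95, 6.29 and 5.49 CPM in the 3 mutants (FDR = 0.0422, 0.027 and 0.0769). In control EBs the leucocyte gene Ptprc was at 0 counts. In EBs + RA the mesoderm list did not move with Aplnr and Kdr. In Neil1 5 of 11 genes rose and 4 fell (21.2% of all genes higher and 19.9% lower). In Neil2 5 of 12 rose and 3 fell (18.3% and 16.6%). In Apex1 7 of 12 rose and 0 fell (13.9% and 10.9%). The median log2 fold changes of the list were 0.92, 0.20 and 0.74. The part of fewer mesodermal cells in the levels of Aplnr, Kdr and Etv2 was not tested.

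The effect of RA on the genotype differences was tested by an interaction term for Neil2 and Apex1. In Neil2, 4 of 10 members passed with Aplnr counted, 3 positive and 1 negative (15.4% of all genes, 7.42% positive and 7.98% negative). The difference between Neil2 and control was less negative with RA for Kdr (2.44 on the log2 scale, SE 0.27, FDR = 1.5e-04) and Etv2 (2.62, SE 0.58, FDR = 0.012), and more negative for Cldn5 (−3.10, SE 0.58, FDR = 0.00489). Aplnr, the remaining one of the 4, stood at 3.52, given without a test. It passed in only 1 of 6 fits that each left out 1 clone. Eng stood at 0.85 (FDR = 0.191) and was called with the clone as a block (0.78, FDR = 0.0803), which made 5 members. In Apex1, 4 of 10 passed as well (16.5% of all genes, 10.4% positive), all positive, namely Kdr (2.86, FDR = 7.1e-04), Etv2 (3.08, FDR = 0.00371), Pecam1 (1.64, FDR = 5.5e-04) and Eng (1.64, FDR = 0.00187). The gap of Kdr to the controls was thus smaller with RA in both genotypes, that of Etv2 went from −1.09 to 1.99 in Apex1, and that of Cldn5 in Neil2 went from 0.02 to −3.07. The Etv2 term in Apex1 was lost without duplicate 1.

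Stages were also compared within each mutant. In Neil2, 2 of the 9 members tested were DE between mESCs and EBs (27.4% of all genes, 14.4% higher), Cdh5 at a log2 fold change of 2.80 (FDR = 0.00412) and Esam at 1.36 (FDR = 0.00742), whereas Etv2 was at 0.10 (FDR = 0.881). Between EBs and EBs + RA of Neil2, 5 of 9 were DE (42.4% of all genes, 21.4% higher and 21.0% lower). Kdr (1.2, FDR = 0.0129) and Cdh5 (1.82, FDR = 0.00969) rose, and Pecam1 (−2.24, FDR = 0.00916), Tek (−1.46, FDR = 0.00636) and Cldn5 (−2.91, FDR = 0.00159) fell. With the clone as a block, Etv2 (−0.80, FDR = 0.0918) and Eng (−0.65, FDR = 0.0108) were also called lower. Kdr thus rose with RA in Neil2, where it fell in controls. In Neil1, given as a description, libraries of mESCs and EBs did not overlap for 2 of 9 members, Cdh5 and Esam, both higher (44.3% of all genes, 21.7% higher), and those of EBs and EBs + RA for 6 of 9, 1 higher and 5 lower (64.0% of all genes, 33.5% higher and 30.5% lower), with Kdr at 0.92 and Cldn5 at −3.79. In Apex1, where duplicates of 1 clone stood on both sides, 7 of 10 members were DE between mESCs and EBs, 5 higher and 2 lower (38.7% of all genes, 18.4% higher and 20.3% lower), among them Aplnr at 6.13 (FDR = 5.8e-07) and Kdr at 0.59 (FDR = 0.0724, not called without mESC duplicate 1 or EB duplicate 2 or by DESeq2), and 7 of 10 between EBs and EBs + RA, 3 higher and 4 lower (48.9%, 26.3% higher and 22.6% lower), among them Aplnr at −2.73 (FDR = 1.5e-04) and Tie1 at 2.24 (FDR = 2.0e-05). Kdr rose with RA in Apex1 as well (1.60, FDR = 0.00322), a larger step than that from mESCs to EBs.

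Neil1 and Neil2 were compared with each other where the choice of members did not enter. edgeR called 0 of 9 members in mESCs and 0 of 9 in EBs + RA, as it did 0.0% of all genes. At an unadjusted p below 0.05 there was 1 member in mESCs, Kdr, and there were 0 in EBs + RA, and over all genes 915 and 1608. DESeq2 called 3 and 108 genes in all, none of them a member. The differences of Neil2 from Neil1 in EBs + RA had wide intervals, with Kdr at −0.16 (95% interval −0.92 to 0.60), Pecam1 at −0.04 (−1.30 to 1.22) and Cdh5 at −2.04 (−4.32 to 0.24) on the log2 scale. Without Neil1 clone #11 the value for Cdh5 was 0.25 (FDR = 0.964).

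A ligand of APLNR was followed next, as the first of the pathways around the members. Apela, the other gene of the apelin list, was not matched in the annotation and has no values here. Apln, encoding apelin, was at 7.21 CPM in control EBs, 1.49 CPM in Neil1 (log2 fold change −2.28, no test), 1.13 CPM in Neil2 (−2.67, SE 0.35, FDR = 0.00232) and 5.83 CPM in Apex1 EBs (−0.31, FDR = 0.472). With RA it was at 1.79 CPM in controls and fell in Neil1 (0.841 CPM, −1.07, FDR = 0.0742) and Neil2 (0.834 CPM, −1.08, FDR = 0.0297), while Apex1 stood at 1.51 CPM (−0.21, FDR = 0.648). Apln and Aplnr were thus both lower in Neil2 at the EB stages. In Apex1 EBs Aplnr lay below every control library, given without a test, and Apln was not called.

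Of 9 ligands, receptors and co-receptors of the VEGF pathway, 4 fell and 0 rose in Neil2 EBs (7.69% of all genes lower and 8.65% higher), with a median log2 fold change of −1.0. The co-receptor Nrp1 went from 46.6 CPM in control EBs to 1.03 CPM (−5.48, SE 0.49, FDR = 4.6e-04). Falls were also called for Nrp2 from 98.8 to 17.3 CPM (−2.51, FDR = 0.00203), Flt1, the decoy receptor for VEGFA, from 44.0 to 12.8 CPM (−1.76, FDR = 0.0064) and the ligand Pgf from 6.53 to 2.1 CPM (−1.59, FDR = 0.0243). The main ligand Vegfa was at 65.1 CPM in control and 61.6 CPM in Neil2 EBs (−0.06, FDR = 0.92). The ligand Vegfb was at 44.4 CPM in control, 37.2 CPM in Neil1, 43.8 CPM in Neil2 (−0.01, FDR = 0.988) and 42.9 CPM in Apex1 EBs (−0.05, FDR = 0.816), and Vegfc at 8.85 CPM in control and 4.42 CPM in Neil2 (−1.0, FDR = 0.22). Neil1 EBs had 1.43 CPM of Nrp1, 18.5 CPM of Nrp2, 13.4 CPM of Flt1 and 1.47 CPM of Pgf, without a test. In Apex1 EBs Vegfa fell to 34.1 CPM (−0.94, FDR = 2.4e-04), Flt1 to 13.2 CPM (−1.74, FDR = 0.0133) and Nrp2 to 26.8 CPM (−1.89, FDR = 0.0208), in all 5 of the 9 genes (13.9% of all genes lower), while Vegfd rose (0.54, FDR = 0.0758).

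With RA the VEGF genes were split. With Neil1 knockout 4 of 9 fell and 2 rose (19.9% of all genes lower and 21.2% higher). With Neil2 knockout 3 of 9 fell and 1 rose (16.6% and 18.3%), and in Apex1 3 of 9 fell and 1 rose (10.9% and 13.9%). Vegfb stood at 40.3 CPM in controls and 39.4, 42.2 and 47.1 CPM in the 3 mutants and was not called. Nrp1 fell from 64.1 CPM to 11.4 CPM in Neil1 (−2.48, FDR = 2.2e-04) and 14.1 CPM in Neil2 (−2.16, FDR = 3.5e-04), and Vegfc, the ligand of the lymphatic receptor FLT4, from 12.2 CPM to 1.54 CPM (−2.97, FDR = 8.8e-04) and 2.53 CPM (−2.24, FDR = 0.00413). Flt4 itself rose from 11.5 CPM to 17.3 CPM in Neil1 (0.59, FDR = 0.0898) and 22.7 CPM in Neil2 (1.00, FDR = 0.0291). Flt1 was at 21.1 CPM in controls (12.8 to 32.4), 50.8 CPM in Neil1 (31.5 to 89.2, overlapping the controls, 1.27, FDR = 0.0727) and 21.5 CPM in Neil2 (0.05, FDR = 0.941).

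The ligands of TEK moved against their receptor in Neil-deficient EBs + RA. Angpt1, the activating ligand, stood at 14.8 CPM in controls and at 0.244 CPM in Neil1 (log2 fold change −5.83, SE 0.49, FDR = 2.0e-04), 0.37 CPM in Neil2 (−5.31, SE 0.43, FDR = 2.6e-04) and 4.29 CPM in Apex1 (−1.75, SE 0.22, FDR = 0.00194). Angpt2, the context-dependent ligand, went from 8.29 CPM to 2.11 CPM (−1.96, FDR = 9.2e-04) and 2.01 CPM (−2.02, FDR = 0.00133) in the Neil mutants, and it rose to 11.9 CPM in Apex1 (0.55, FDR = 0.0936). In control EBs without RA Angpt1 was at only 0.612 CPM. The receptor phosphatase Ptprb, which acts on TEK, fell in Neil2 EBs (1.92 to 0.667 CPM, −1.48, FDR = 0.0276) and Apex1 EBs (0.487 CPM, −1.96, FDR = 0.00255).

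Of 17 transcription factors of the endothelial lineage listed, 7 of 15 tested fell and 1 rose in Neil2 EBs, 8 of 16 fell and 2 rose in Apex1 EBs, and with RA 10 of 16 fell and 5 rose in Neil1, 8 of 16 fell and 1 rose in Neil2 and 1 of 16 fell and 3 rose in Apex1. Over all genes, 7.69% were lower and 8.65% higher in Neil2 EBs and 13.9% and 11.9% in Apex1 EBs. With RA the shares were 19.9% and 21.2% in Neil1, 16.6% and 18.3% in Neil2 and 10.9% and 13.9% in Apex1. Ets1, of the same family as Etv2, fell from 25.8 CPM in control EBs to 8.00 CPM in Neil2 (log2 fold change −1.66, FDR = 0.00477) and 9.02 CPM in Apex1 (−1.52, FDR = 4.2e-05). Klf2, a factor that flow induces in endothelium, rose in Neil2 EBs (103 to 207 CPM, 1.03, FDR = 0.0189) and Apex1 EBs (176 CPM, 0.78, FDR = 0.0122). The 17 factors summed to 250 to 304 CPM in control mESCs and 175 to 249 CPM in control EBs. The cells behind the rise of Klf2 were not tested. Sox17, a factor of arterial endothelium and of endoderm, stood at 24.1 CPM in control EBs, 17.6 CPM in Neil1, 16.6 CPM in Neil2 (−0.52, FDR = 0.548) and 5.19 CPM in Apex1 (−2.21, FDR = 3.7e-05). With RA Sox17 rose in Neil1 (12.7 to 37.7 CPM, 1.58, FDR = 0.00797). Runx1, required for blood formation, fell from 24.8 CPM to 3.21 CPM in Neil2 EBs (−2.90, FDR = 0.0126) and 3.70 CPM in Apex1 EBs (−2.75, FDR = 0.00134). In Neil1 EBs + RA Runx1 rose from 5.07 to 10.9 CPM (1.11, FDR = 0.0358) and Csf1r, a receptor of macrophages, from 3.67 to 22.2 CPM (11.2 to 42.9, 2.59, FDR = 0.00751). Without RA, Csf1r was at 2.54 CPM in controls and 2.08 CPM in Neil2 (FDR = 0.656), and it fell to 0.236 CPM in Apex1 (−3.40, FDR = 2.4e-04).

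Of 12 genes of arterial identity and Notch or ephrin signalling, 4 of 11 tested fell and 3 rose in Neil2 EBs, 8 of 12 fell and 0 rose in Neil2 EBs + RA, and 4 of 12 fell and 3 rose in Apex1 EBs + RA, to be read against the shares of all genes above. Efnb2, the arterial ephrin ligand, fell with RA from a control level of 141 CPM to 34.6 CPM in Neil1 (log2 fold change −2.02, FDR = 0.00117), 40.9 CPM in Neil2 (−1.76, FDR = 3.7e-04) and 89.3 CPM in Apex1 (−0.63, FDR = 0.0273), and its venous receptor Ephb4 from 79.9 CPM to 47.7 CPM (−0.74, FDR = 0.0318) and 40.4 CPM (−0.96, FDR = 9.0e-04) in the Neil mutants. Unc5b, a netrin receptor of arteries, fell in Neil2 EBs (187 to 83.0 CPM, −1.15, FDR = 0.0037) and Apex1 EBs (66.4 CPM, −1.49, FDR = 5.5e-06). Of 23 further endothelial surface genes, 6 rose and 3 fell of 18 tested in Neil2 EBs, 7 rose and 2 fell in Apex1 EBs, and with RA 3 rose and 8 fell of 21 in Neil1, 2 rose and 7 fell of 20 in Neil2 and 7 rose and 2 fell of 22 in Apex1. The 23 genes summed to 360 to 504 CPM in control mESCs and 150 to 181 CPM in control EBs, so that a rise in the list need not be endothelial. Among these, Jam2, a junctional adhesion molecule, rose in Neil2 EBs (47.1 to 104 CPM, 1.16, FDR = 0.072). Mcam, an adhesion molecule of endothelial and mural cells, was at 22.2 CPM in control and 24.7 CPM in Neil2 EBs (0.16, FDR = 0.589) and rose to 49.1 CPM in Apex1 EBs (1.13, FDR = 3.1e-04). Egfl7, a secreted endothelial protein, was at 35.9 CPM in control, 31.5 CPM in Neil1, 37.9 CPM in Neil2 (0.09, FDR = 0.796) and 28.3 CPM in Apex1 EBs (−0.35, FDR = 0.0371, under the fold change limit). Of 7 genes of TGF-β and BMP signalling in endothelium, 3 of 5 tested fell in Neil2 EBs, namely Smad1 (−1.15, FDR = 0.00146), Smad5 (−0.54, FDR = 0.0224) and Smad6 (−0.96, FDR = 0.0288), while Eng rose there. The median log2 fold changes of these 3 lists in Neil2 EBs were −0.46, 0.29 and −0.54, against 0.02 for all genes.

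**Figure D4:**
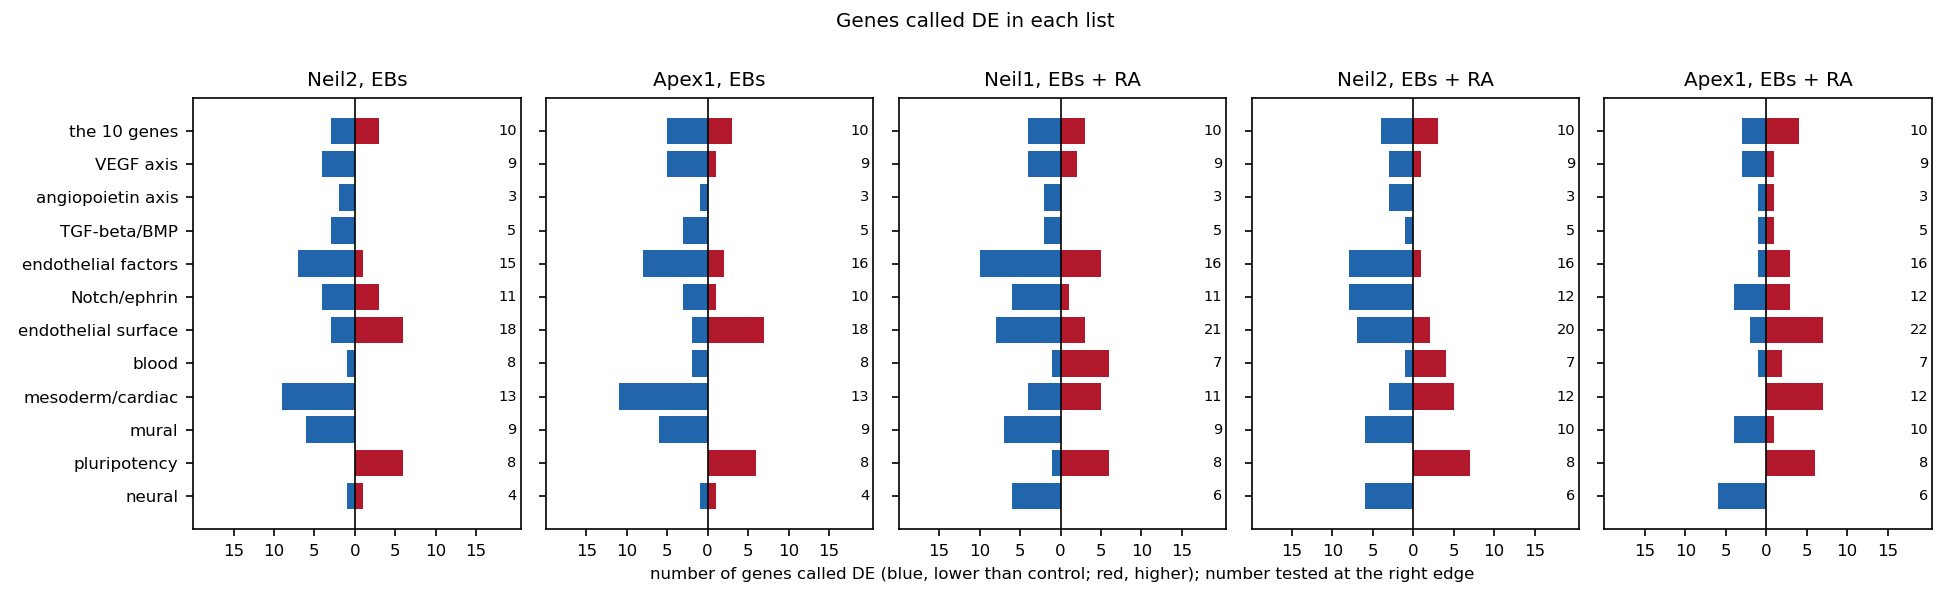
Number of genes called DE lower (left of 0) and higher (right of 0) in each gene list, in 1 panel for each of the 5 tested comparisons at the EB stages, with the number of genes tested at the right. The mesoderm list has 9 of 13 genes lower in Neil2 EBs and 11 of 13 in Apex1 EBs (7.69% and 13.9% of all genes). The pluripotency list has 6 of 8 higher in both (8.65% and 11.9% of all genes).

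The neural genes of the lists served as markers of the cells that RA favours. Sox1 and Map2 were not matched in the annotation and have no values here. All 6 tested were lower in EBs + RA of Neil1, Neil2 and Apex1 each (19.9%, 16.6% and 10.9% of all genes lower). Crabp1, a retinoic acid binding protein of neural cells, stood at 206 CPM in controls and at 4.37 CPM in Neil1 (log2 fold change −5.54, FDR = 5.5e-05), 10.5 CPM in Neil2 (−4.27, FDR = 5.6e-04) and 35.4 CPM in Apex1 (−2.51, FDR = 6.0e-04). Nes, encoding nestin of neural progenitors, fell from 134 CPM to 19.0 CPM in Neil1 (−2.81, FDR = 4.7e-04), 21.7 CPM in Neil2 (−2.61, FDR = 1.6e-04) and 40.7 CPM in Apex1 (−1.69, FDR = 0.00121). Tubb3, a neuronal tubulin, fell from 99.5 CPM to 17.4, 13.2 and 16.1 CPM (FDR = 0.00203, 0.00116 and 0.00194). Without RA, Nes fell from 35.3 CPM to 15.8 CPM in Neil2 EBs (−1.14, FDR = 0.00739) and 16.2 CPM in Apex1 EBs (−1.12, FDR = 0.00153), and Tubb3 was called in neither. Angpt1, Cldn5 and Tie1 were lower in the same Neil libraries. The part of neural cells in their levels was not tested.

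Over the 33 libraries the genes outside the members whose log2 CPM was most like that of Aplnr, among 15728 genes whose mean reached 1 CPM in some group, were 1110050K14Rik (Pearson's r 0.889), Six2 (0.886), Greb1 (0.884), Cxcr4 (0.883), Wnt5a (0.873), Rspo3 (0.870), Sema5a (0.868), Crb2 (0.863), Nkx1-2 (0.861) and Msx1 (0.849). These coefficients are a description, since libraries share clones, stage and depth. Of these, the chemokine receptor Cxcr4 had 30.7 CPM in control EBs and 4.13, 3.80 and 5.82 CPM in Neil1, Neil2 and Apex1 EBs. Wnt5a, a ligand of noncanonical Wnt signalling, had 83.1 CPM against 1.87, 1.18 and 9.98 CPM, and Msx1, a homeobox gene, 97.8 CPM against 3.22, 3.34 and 10.5 CPM. In each of the 3 genes Apex1 EBs lay between the Neil mutants and the controls, as for Aplnr. They were chosen for likeness to Aplnr over these same libraries, so that this shared order is no separate result. Kdr was the member most like Aplnr (r = 0.87, place 8 among all genes compared), and the others followed with Etv2 at 0.47, Tie1 at 0.35, Cdh5 at 0.26, Cldn5 at 0.20, Esam at 0.19, Pecam1 at −0.35, Tek at −0.46 and Eng at −0.49. Among the other pairs of members the coefficients were highest for Cdh5 with Esam (0.91), Pecam1 with Tek (0.87), Tek with Eng (0.86) and Pecam1 with Eng (0.79), and Pecam1, Tek and Eng all had negative coefficients with Aplnr.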

How the data were processed

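Libraries were made from polyA RNA with the TruSeq RNA v2 kit and sequenced on a HiSeq instrument. The authors aligned reads to NCBIM37 and counted them per Ensembl gene, and the submitters' processing notes name TopHat2 version 2.0.9, Bowtie2 version 2.1.0, HTSeq version 0.5.4 and DESeq2 version 1.6.3. The deposited files hold raw counts, 1 file per library. Between 11.44% and 19.85% of the reads were set aside as not unique, and rows that name no gene were kept out of totals and tests. Of the 37991 identifiers, 37205 were named in the annotation.

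Counts were compared with edgeR version 4.0.16 (limma version 3.58.1, R version 4.3.3) by the robust quasi-likelihood test after filterByExpr and TMM, each mutant against the controls of its stage, with no other group in the fit. Log2 CPM for correlations used a prior count of 2. Tables were made with Python version 3.11.15, pandas version 2.3.3, numpy version 2.4.6 and scipy version 1.17.1. Procedures were tested on simulated data. P-values measure the spread between clones, and on the Apex1 side of a comparison that between technical duplicates. At this depth, values below 1 CPM rest on few counts, and intervals on ratios cover counting error only.

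The members and lists were chosen with earlier results of these data known. Named genes were all members and all genes of the apelin, VEGF and angiopoietin lists, with no values for Apela, which was not matched. They also included the 3 genes of each other list with the highest mean in control EBs, the 10 genes most like Aplnr and the targeted genes. Other genes were counted per list, without Sox1 and Map2 of the neural list, which were not matched either. The pluripotency list is spelled out, and Ptprc was named after its values were seen. Promoter windows come from RefSeq, GRCm38.p6.

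Same-numbered clones were paired between EBs and EBs + RA, since EBs were divided on day 4. Their deviations from group means correlated at 0.24 to 0.46. Between control and Neil1 EBs + RA same-numbered libraries correlated at 0.18 to 0.23. In all these comparisons every same-numbered pair correlated above every differently numbered pair. That held in no other genotype comparison. The reported fits have no block, and the blocked fits are an alternative. Intervals of log2 differences use the t distribution with edgeR's degrees of freedom. Alternatives were DESeq2 version 1.42.0, RLE size factors, no filter, a minimum of 10 counts per library, 1 fit over all genotypes, each replicate left out and the replicate number as a block.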

Additional observations from a re-analysis of the deposited data

Results flagged for a closer look

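Members whose difference from control changed with RA were singled out by the interaction test. For Neil2 the difference in EBs + RA minus that in EBs was 2.44 for Kdr, 2.62 for Etv2 and −3.1 for Cldn5 on the log2 scale. For Apex1 it was 2.86 for Kdr, 1.64 for Pecam1, 3.08 for Etv2 and 1.64 for Eng. Kdr and Etv2 are on both lists, and both comparisons use the same control libraries.

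For 2 members the Apex1 duplicates lay on opposite sides of the controls at different stages. Etv2 was at a log2 fold change of −0.63 in mESCs and 1.99 in EBs + RA, and Esam at 0.39 in mESCs, −0.78 in EBs and −0.94 in EBs + RA. Neither gene was called in Apex1 mESCs, where Etv2 had 19 and 25 counts. For these steps from mESCs the difference between stages was not tested.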

How the results depend on the processing

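Counts stayed within 1.5 times of the main count in 215 alternatives and moved further in 14, and no called member changed sign. Of 2190 values of single members under an alternative, 59 changed sign, 0 of them with a call on either side. Among these, in Neil1 EBs + RA, Cdh5 went from 2.22 to −0.05 without clone #11 and Etv2 from −0.16 to 0.57 without control #4, and in Neil1 mESCs Tek went from 0.15 to −0.35 without clone #11. Without 1 library each, the count ranged from 0 to 1 in Neil1 mESCs, 0 to 1 in Neil2 mESCs, 0 to 5 in Apex1 mESCs, 3 to 8 in Apex1 EBs + RA and, for Neil1 mESCs against EBs, 2 to 5. The upper ends in mESCs came without control #7, the lower ends in Apex1 without a duplicate, and the 5 in Neil1 without the mESCs of clone #7 or the EBs of clone #11. With at least 10 counts in every sample, 4 members were called in Apex1 EBs + RA and 1 in the Neil2 interaction, where fewer members were tested.

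With the replicate number as a block, Apex1 mESCs had 5 members called, adding Kdr (1.36), Tie1 (−0.77) and Cldn5 (−1.23), though the pairing there is by number alone. Where the pairing holds, between EBs and EBs + RA, the block gave 9 members in controls and, in Neil2, 7, adding Etv2 (−0.80, FDR = 0.0918) and Eng (−0.65, FDR = 0.0108). In Neil1 EBs + RA it gave 7 and left Cdh5 uncalled (1.02, FDR = 0.4). With the block Cldn5 fell in Apex1 EBs + RA (−1.35, FDR = 6.3e-04), where the pairing is again by number alone.

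DESeq2 called Esam in Neil1 EBs + RA (1.31, FDR = 0.0329), and without a filter Pecam1 was not called in Neil2 EBs + RA (FDR = 0.151). The list of 10 genes most like Aplnr shared 1 gene with that by Spearman's rho and 4 with that from EBs and EBs + RA only. Without the mESC library of Neil1 clone #11, 0 members were called in Neil1 mESCs. The cause of these changes was not tested. Depth limits Aplnr most, with 0 to 8 counts in every mutant library but the Apex1 EBs.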
